A study of Rattus norvegicus with 17 samples.

Results

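Interferon-stimulated genes are host genes that cells switch on when interferon reaches them, and 39 of them, chosen by name, were read here in rat skin on 17 arrays. A named probe was found for 35 of the 39. For 33 genes a probe lay well above background on at least 8 arrays, out of 11167 named genes that met this rule. Samd9l, Xaf1, Zbp1 and Herc6 had no named probe, and the probes for Ifit1 and Oasl lay above background on 0 of 17 arrays. The study asked whether long-term exposure to millimetre waves at 94 GHz alters gene expression in skin. Male CD hairless rats, aged 2 to 3 months at the start, received either 94 GHz (exposed, 9 arrays) or sham exposure (8 arrays), 3 h a day, 3 days a week, over 5.5 months. Skin explants were not sorted into cell types, so fewer cells of a type and less RNA per cell cannot be told apart. The design text counts 6 exposed and 8 sham animals, fewer exposed animals than exposed arrays. Some exposed arrays may therefore come from the same rat, which would make every p-value below too small. The labels tie no array to an animal or to the pair of rats in a cage, and p-values measure the spread between arrays.

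Interferons are secreted by cells that sense viral nucleic acid or, for interferon gamma, by activated lymphocytes. Types I and III signal through JAK kinases to a complex that contains STAT2 and IRF9 and binds a promoter element called the interferon-stimulated response element (ISRE). Interferon gamma acts mainly through another element, the gamma-activated sequence (GAS). In skin, keratinocytes, fibroblasts, endothelium and resident immune cells can all respond, and many of these genes are also transcribed at a low level without infection.

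Promoter sequences are shown because the spread of each gene over explants is set beside these elements further on. The letters come from RefSeq on the rat assembly GRCr8, which holds a promoter of 300 bases (250 before the gene start and 50 from it on) for 32 of the 39 genes. The 7 others are Dhx58, Ifit1, Ifit2, Isg15, Mx2, Usp18 and Zbp1. The patterns searched on both strands were GAAA, any 2 bases and GAAA again for the ISRE core, and TTCNNNGAA for GAS. The ISRE pattern was found in 19 of the 32 promoters, or 59.4%, against 3.92% of all 33469 rat promoters in the same table. The GAS pattern was found in 8 of 32, or 25%, against 8.87% of all promoters. A match is a description of the letters and not evidence of binding. Each sequence runs 5′ to 3′ on the strand of its gene, with the match in capitals. The whole promoters of Rsad2 and Cmpk2, which are neighbouring genes, come before 50-base windows around the match in genes that varied most or formed close pairs, as far as the table holds them. Rsad2 holds an ISRE match that begins 147 bases before its start, and Cmpk2 holds none in this window. In Oas1a and Bst2 the capitals cover 2 overlapping matches. Capitals that begin with TTTC are matches on the opposite strand.
Rsad2, chr6:48788071-48788370, minus strand: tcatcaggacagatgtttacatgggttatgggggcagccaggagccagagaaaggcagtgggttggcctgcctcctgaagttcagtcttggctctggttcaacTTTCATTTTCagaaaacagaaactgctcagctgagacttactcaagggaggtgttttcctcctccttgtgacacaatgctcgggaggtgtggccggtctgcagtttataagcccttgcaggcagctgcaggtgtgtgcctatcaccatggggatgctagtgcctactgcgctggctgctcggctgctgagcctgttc
Cmpk2, chr6:48802600-48802899, plus strand: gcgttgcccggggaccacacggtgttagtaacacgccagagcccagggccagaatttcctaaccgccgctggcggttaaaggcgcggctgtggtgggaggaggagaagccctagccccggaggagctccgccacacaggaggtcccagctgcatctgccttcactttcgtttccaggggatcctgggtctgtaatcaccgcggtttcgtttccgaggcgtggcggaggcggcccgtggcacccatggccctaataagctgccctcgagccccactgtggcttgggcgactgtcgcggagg
Ifit3, chr1:241527262-241527311, plus strand: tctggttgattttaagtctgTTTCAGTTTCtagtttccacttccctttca
Oasl2, chr12:47383307-47383356, minus strand: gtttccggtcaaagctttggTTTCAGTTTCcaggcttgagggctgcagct
Oas1a, chr12:41330405-41330454, plus strand: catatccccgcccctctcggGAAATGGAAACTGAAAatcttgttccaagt
Bst2, chr16:18255069-18255118, minus strand: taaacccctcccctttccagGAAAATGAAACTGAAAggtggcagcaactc
Irf7, chr1:205800063-205800112, minus strand: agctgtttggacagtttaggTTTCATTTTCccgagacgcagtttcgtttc
Gbp2, chr2:234005676-234005725, plus strand: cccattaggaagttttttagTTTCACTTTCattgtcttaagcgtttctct
Gbp5, chr2:233910923-233910972, plus strand: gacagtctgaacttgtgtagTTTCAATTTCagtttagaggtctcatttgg
Irf1 and Irf9 had only a GAS match in this window, and their windows hold 20 bases on either side of it.
Irf1, chr10:38417773-38417821, plus strand: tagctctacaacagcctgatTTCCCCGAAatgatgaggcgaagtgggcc
Irf9, chr15:33065717-33065765, plus strand: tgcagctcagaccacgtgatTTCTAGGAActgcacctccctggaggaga

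**Figure D1:**
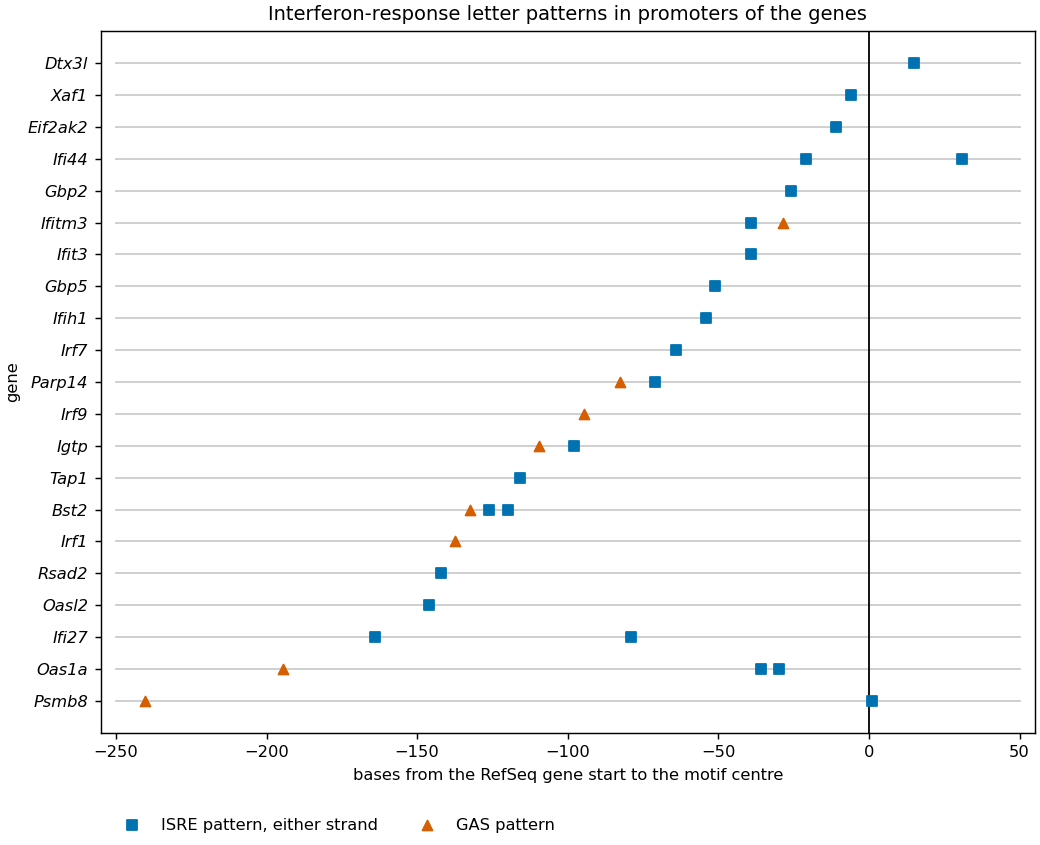
Positions of ISRE (squares) and GAS (triangles) pattern matches in the promoters of the 21 genes that held either, with the distance in bases from the RefSeq gene start to the centre of the match on the horizontal axis and genes on the vertical axis. Matches to the ISRE pattern began between 169 bases before the gene start and base 27 after it.

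Of the 30367 probes on the array, 20710 were kept, and every gene value below is a log2 processed signal relative to the 75th percentile of its own array. That percentile was 1170 to 1703 in exposed arrays and 1077 to 1576 in sham arrays. Between 66.7% and 70.8% of probes passed the background rule. The number of arrays limits the precision. Skin identity was checked with basal keratinocyte markers, of which 4 of 6 were measured, and their summed signal was 209 to 319 times the 75th percentile in exposed arrays and 227 to 328 times in sham arrays. Markers of muscle and follicle differed widely between explants of both groups. Skeletal muscle markers, 6 of 8 measured, summed to 0.265 to 176 in exposed arrays and 0.254 to 110 in sham arrays. Hair follicle markers, 6 of 8 measured, summed to 8.63 to 277 in exposed arrays and 0.0647 to 279 in sham arrays.

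No interferon-stimulated gene was called in the limma comparison of exposed with sham skin, with 0 of 33 at an adjusted p under 0.05 and 0 of 33 at an unadjusted p under 0.05. Over all 20710 probes the share called was 0% after adjustment and 4.55% before it, with 0.594% higher and 3.96% lower in exposed skin. The smallest adjusted p of any probe was 0.983. The log2 difference, exposed minus sham, was above 0 for 21 of the 33 genes and below 0 for 12, so 63.6% lay above 0, against 41% of all named genes. The median difference was 0.0323 over the 33 genes and -0.0176 over all named genes. Leaving out the array sham 2 brought the members' median to -0.00337. Exposed and sham arrays overlapped for all 33 genes, as for nearly all probes, of which only 0.00483% had groups that did not overlap. The 95% interval of the difference stayed within 1.5-fold either way for 24 genes and within 2-fold for 31, while 87.4% of all kept probes stayed within 1.5-fold.

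Rsad2, which encodes viperin, an antiviral enzyme that makes a chain-terminating nucleotide, had the largest difference. Its log2 signal ran from -4.42 through a median of -3.32 to -1.16 in exposed arrays, against -5.17, -4.33 and -2.57 in sham arrays. Exposed 2 was the highest of all arrays and sham 1 the lowest, and the sham mean was exceeded by 7 of the 9 exposed arrays. Exposed minus sham came to 0.83 log2 units (95% interval -0.15 to 1.80, adjusted p = 0.983 in limma). Without exposed 2 it was 0.58, and it was 0.49 after normexp background correction, which adds an offset to every signal. Cmpk2, the mitochondrial nucleotide kinase that lies next to Rsad2, ran from -4.16 through -3.36 to -2.58 in exposed arrays, against -4.29, -3.84 and -2.95 in sham arrays. Here too exposed 2 was the highest array, and the difference was 0.34 (-0.15 to 0.83, adjusted p = 0.983 in limma).

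Ifit2, a tetratricopeptide protein that binds viral RNA and restrains its translation, ran from -3.84 through -3.16 to -2.56 in exposed arrays, against -4.23, -3.56 and -2.60 in sham arrays. The highest value of each group was nearly the same, and the lowest sham arrays lay below every exposed array. Its difference was 0.35 (-0.13 to 0.83), and the sham mean was exceeded by 6 of the 9 exposed arrays. Its relative Ifit3 ran from -5.28 through -4.12 to -3.06 in exposed arrays, against -4.92, -4.78 and -1.79 in sham arrays. Sham 6 alone held the highest Ifit3 value, so the median was higher in exposed skin while the top value was in sham skin. The Ifit3 difference was 0.11 (-0.81 to 1.04), 0.46 without sham 6 and -0.02 without exposed 3.

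Isg15 encodes a ubiquitin-like protein that is attached to other proteins. Its signal ran from -2.47 through -1.56 to -0.43 in exposed arrays, against -2.51, -2.06 and -0.12 in sham arrays, a difference of 0.09 (-0.71 to 0.89). Leaving out single arrays moved the Isg15 difference between -0.05 without sham 2 and 0.30 without sham 6, with its sign turned by 6 arrays. Oasl2, a member of the oligoadenylate synthetase family, ran from -3.37 through -2.38 to -1.75 in exposed arrays, against -3.19, -2.94 and -1.45 in sham arrays. Its lowest array was in exposed skin and its highest in sham skin, and the difference was 0.28 (-0.29 to 0.84). Oas1a, the synthetase whose product activates RNase L, ran from -4.86 through -3.63 to -2.46 in exposed arrays, against -5.28, -3.68 and -2.13 in sham arrays. The medians of Oas1a nearly coincided, and its difference was 0.05 (-0.71 to 0.82). That difference was -0.18 without sham 2 and 0.27 without sham 7, and 4 single arrays turned its sign.

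Bst2, or tetherin, which holds budding virions at the cell surface, ran from 1.31 through 1.86 to 2.41 in exposed arrays, against -0.26, 1.81 and 2.51 in sham arrays. The low end in sham skin was the single array sham 6. The difference was 0.27 (-0.33 to 0.87) with that array and 0.0041 without it. The other 8 measured effectors differed by -0.05 to 0.11. Ifi44 differed by 0.11, the nuclear body protein Sp100 by 0.03, and Ifitm3, which blocks virus entry at endosomes, by 0.04. The dynamin-like GTPases Mx1 and Mx2 differed by -0.04 and -0.03, and the mitochondrial Ifi27 by -0.05. Eif2ak2, the kinase PKR that shuts down translation on double-stranded RNA, differed by 0.01 (-0.14 to 0.16), and Ifi35 by 0.01 (-0.09 to 0.12). Over the 16 measured effectors 13 differences were above 0 and 3 below, with a median of 0.07.

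**Figure D2:**
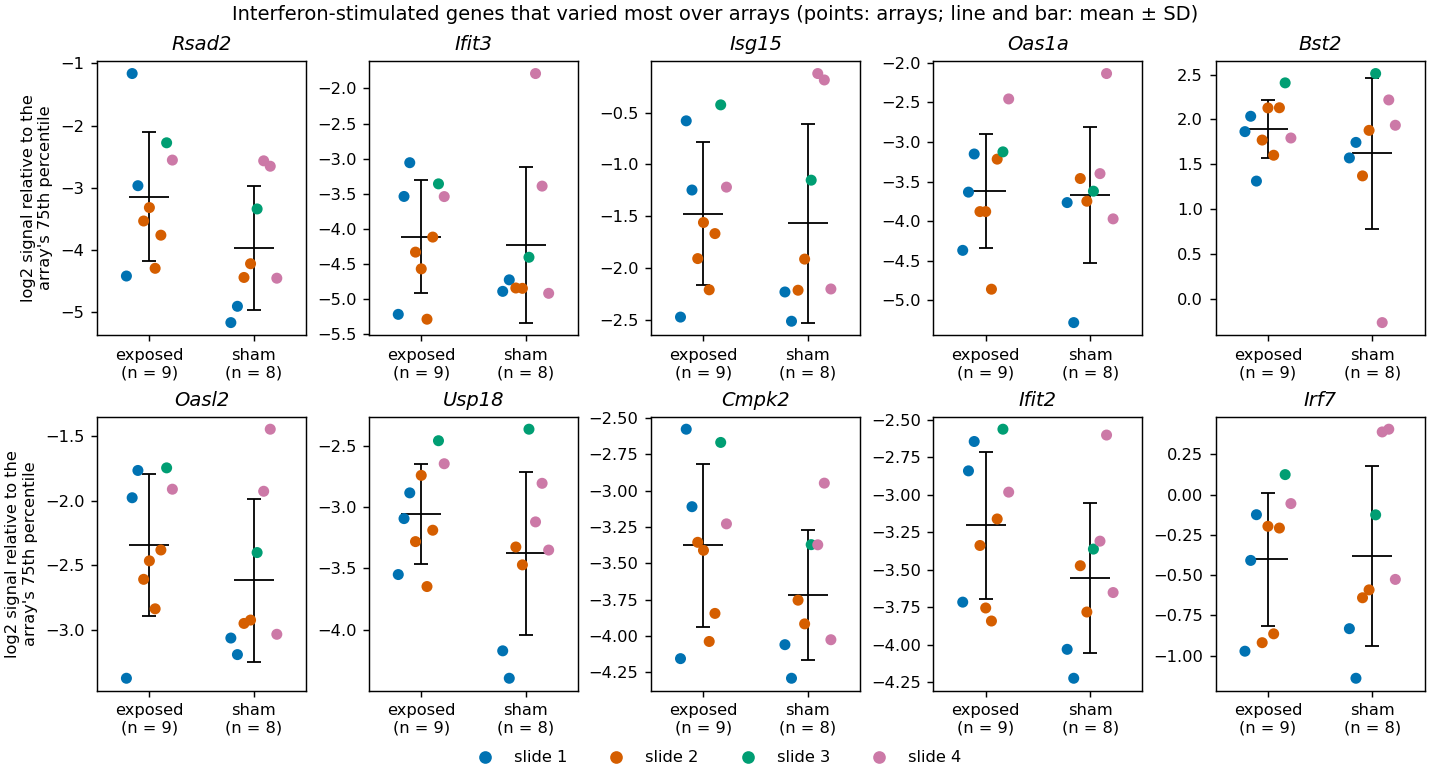
Log2 processed signal relative to the array's 75th percentile (vertical axis) for the 10 interferon-stimulated genes whose SD over arrays lay in the upper 10% of all named genes, in exposed arrays (left) and sham arrays (right) of each panel. Points are arrays coloured by slide, and the line and bar are the mean and SD (n = 9 and 8). The groups overlap for each gene, and sham 6 stands alone at the bottom for Bst2.

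Upstream regulators and modifiers gave the same lack of calls. The RNA sensors Ifih1 (MDA5) and Dhx58 (LGP2) differed by -0.16 (-0.46 to 0.13) and -0.06 (-0.36 to 0.23). In exposed arrays Ifih1 ran from -4.38 through -4.03 to -3.91, and in sham arrays it ran from -4.41 through -4.04 to -3.06, with sham 7 at the top. Without sham 7 the Ifih1 difference was -0.03. Among the transcription factors, Irf7, the amplifier of interferon alpha production, ran from -0.97 through -0.21 to 0.13 in exposed arrays, against -1.14, -0.56 and 0.41 in sham arrays, a difference of -0.02 (-0.49 to 0.45). Irf1 differed by 0.01 (-0.21 to 0.22). Irf9 and Stat2, partners in the complex that binds the ISRE, differed by -0.02 (-0.19 to 0.15) and 0.02 (-0.10 to 0.13).

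Usp18 removes ISG15 from proteins and also damps signalling at the type I receptor. It ran from -3.65 through -3.09 to -2.46 in exposed arrays, against -4.40, -3.34 and -2.36 in sham arrays. Sham 1 and sham 2 lay below every exposed array, and the difference was 0.32 (-0.20 to 0.85, adjusted p = 0.983 in limma), or 0.18 without sham 2. The mono-ADP-ribosyltransferase Parp14 differed by 0.12 (-0.13 to 0.37) and Parp9, which pairs with the ubiquitin ligase Dtx3l, by 0.04 (-0.20 to 0.29). Dtx3l itself was well above background on 9 of 9 exposed and 5 of 8 sham arrays, and differed by -0.13 (-0.51 to 0.26). Trim25, the ubiquitin ligase of the RIG-I pathway, differed by -0.05 (-0.25 to 0.15).

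The guanylate-binding proteins and the immunoproteasome are best known as targets of interferon gamma. Gbp2 differed by 0.10 (-0.22 to 0.43), Gbp5 by 0.08 (-0.29 to 0.46) and the related GTPase Igtp by -0.09 (-0.22 to 0.04). The immunoproteasome subunits Psmb8 and Psmb9 differed by 0.07 (-0.13 to 0.27) and -0.04 (-0.25 to 0.18), and the peptide transporter Tap1 by -0.08 (-0.24 to 0.08). In all 3 antigen processing genes the interval excluded a 1.5-fold difference either way.

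**Figure D3:**
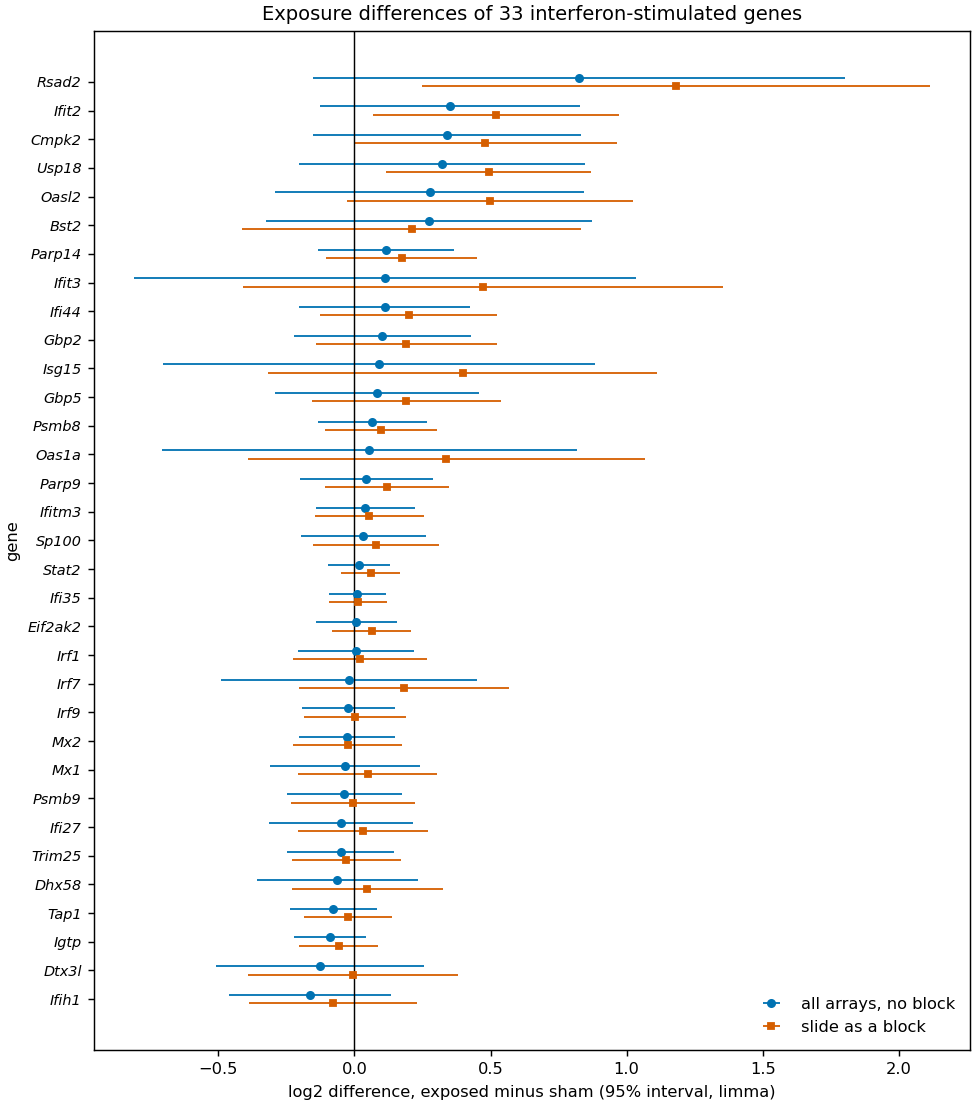
Log2 difference between exposed and sham arrays (horizontal axis, exposed minus sham, with 95% limma intervals) for the 33 measured interferon-stimulated genes, ordered by size. Circles are all arrays without a block and squares are with slide as a block. Each circle's interval crosses 0, and the squares of Rsad2, Usp18 and Ifit2 have intervals above 0 before adjustment over all probes.

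The arrays lay on 4 slides, and each slide held both groups. Slide 1 carried 3 exposed and 2 sham arrays, slide 2 carried 4 exposed and 2 sham, slide 3 carried 1 exposed and 1 sham, and slide 4 carried 1 exposed and 3 sham. With slide as a block in limma, 26 genes had a difference above 0 and 7 below, and the median was 0.0797, against -0.0195 over all named genes, of which 39.1% lay above 0. Still 0 of 33 passed at an adjusted p under 0.05, while 3 had an unadjusted p under 0.05, against 3.4% of all probes in either direction and 0.483% in the higher direction. These 3 were Rsad2, Ifit2 and Usp18, with differences of 1.18, 0.52 and 0.49, each at an adjusted p of 0.999. The mean of Rsad2 was higher in exposed arrays within each slide, by 2.19, 0.60, 1.06 and 0.67 on slides 1 to 4. On slide 4 exposed 9 at -2.555 lay close to sham 6 at -2.567 and sham 7 at -2.654, with sham 8 at -4.455. On slide 2 exposed 6 at -4.296 lay below sham 4 at -4.222. Usp18 was higher by 1.11, 0.18 and 0.45 on slides 1, 2 and 4, and differed by -0.09 on slide 3. Of the 33 genes, the number above 0 was 30 within slide 1, 25 within slide 2, 20 within slide 3 and 11 within slide 4. The members' median was 0.248 within slide 1 and -0.146 within slide 4. Between slides, 3 of 33 genes had an unadjusted p under 0.05, against 8.9% of all probes, by the F-test of limma. They were Irf7, Usp18 and Ifi27, and 0 passed adjustment.

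Several of these genes differed widely between explants of the same group. The median SD over the 17 arrays was 0.272 log2 units for the 33 genes and 0.178 for all named genes, and 25 of the 33 lay above that of all named genes. The 10 genes in the upper 10% of SD were Rsad2, Ifit3, Isg15, Oas1a, Bst2, Oasl2, Usp18, Cmpk2, Ifit2 and Irf7. Their medians in exposed arrays ran from -4.12 for Ifit3 to 1.86 for Bst2, and all but that of Bst2 were negative. The SDs were ranked over named genes of all signal levels and were not matched for signal. The highest and lowest array differed 16.1-fold for Rsad2, 11.3-fold for Ifit3, 8.86-fold for Oas1a and 5.23-fold for Isg15. At the other end, Ifi35 spanned 1.19-fold and Stat2 1.25-fold. Within exposed arrays Rsad2 had an SD of 1.04 and Stat2 of 0.07, and within sham arrays 1.00 and 0.13. The SD was larger among exposed arrays than among sham arrays for 9 of the 33 genes. The share over all named genes was not counted and the 33 genes are not independent, so this count cannot be called unusual.

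The genes varied together from explant to explant. Over 528 pairs of genes the median Pearson correlation across the 17 arrays was 0.508, and 483 pairs, or 91.5%, were above 0. It was 0.533 with group means removed and 0.481 with group and slide means removed. These correlations share the same arrays and scaling and are given as a description. The closest pairs were Rsad2 with Cmpk2 at 0.938, Gbp2 with Gbp5 at 0.924 and Isg15 with Oasl2 at 0.923. Rsad2 and Cmpk2 are neighbours with no protein-coding gene between them in RefSeq, as are Ifit2 and Ifit3, which correlated at 0.703. Parp9 and Dtx3l are also direct neighbours, and correlated at 0.318. Isg15 had the highest mean correlation with the other members, 0.642, followed by Ifi27 at 0.626 and Gbp5 at 0.624. Bst2, Irf9 and Trim25 had the lowest mean correlations, 0.019, 0.029 and 0.125. For Bst2 this rested on sham 6, without which its mean correlation was 0.407. With each array left out in turn, an alternative chosen after seeing the data, the mean ran from -0.118 to 0.187 for Irf9 and from 0.061 to 0.183 for Trim25.

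**Figure D4:**
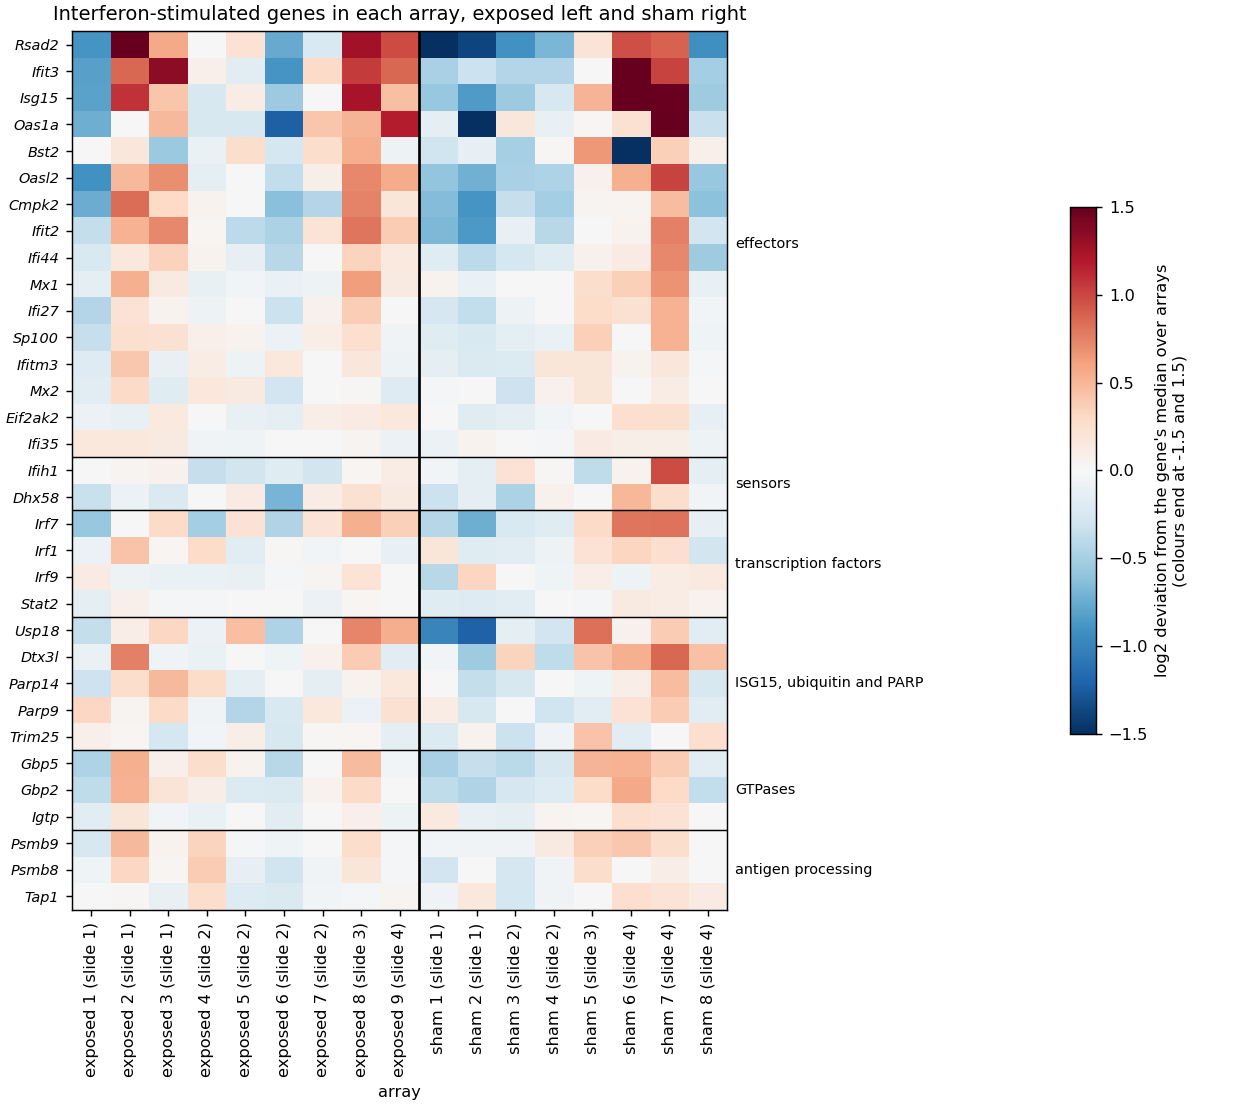
Log2 deviation of each interferon-stimulated gene (rows, grouped by role) from its own median over the 17 arrays (columns, exposed left of the black line and sham right of it). Colours run from blue, below the median, to red, above it, and end at -1.5 and 1.5. Columns such as exposed 2, exposed 8 and sham 7 are red over many rows, and exposed 6 and sham 2 are blue over many rows.

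High and low explants occurred in both groups. The median deviation of the 33 genes from their own medians was 0.267 in exposed 8 and 0.244 in exposed 2, and 0.382 in sham 7, 0.232 in sham 6 and 0.184 in sham 5. It was -0.241 in exposed 6 and -0.223 in exposed 1, and -0.229 in sham 2. Over all named genes the same median stayed between -0.023 and 0.018 in every array. Scaling within each array and centring each gene on its own median keep that value small. It therefore cannot show whether the shifts were particular to the 33 genes. Sham 7 was the highest array for 10 genes and among the top 3 for 21, and exposed 2 was the highest for 8. Sham 2 was the lowest for 12 genes and among the bottom 3 for 19. Sham 6 combined the highest Ifit3 and Isg15 with the lowest Bst2.

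Array brightness followed this order in reverse at its ends, with exceptions. The 75th percentile was 1170 in exposed 8 and 1245 in exposed 2, and 1119 in sham 7 and 1077 in sham 6, which are the dimmer arrays of the series. It was 1642 in exposed 6 and exposed 1 and 1576 in sham 2, but 1703 in exposed 9 and 1565 in exposed 3, whose median deviations were 0.04 and 0.133. Exposed 7 at 1310 had a median deviation of 0, sham 4 at 1322 had -0.066 and sham 1 at 1358 had -0.184. Under quantile scaling the median deviation was 0.249 in exposed 8 and 0.367 in sham 7. Under normexp with the 75th percentile it was 0.253 in exposed 8 and 0.382 in sham 7. The part of brightness in the order of the arrays was not tested. Endothelial markers, 6 of 7 measured, had a median deviation of 0.206 in exposed 2 and 0.193 in exposed 8, and of 0.599 in sham 7, 0.014 in sham 6 and -0.26 in sham 5. Of 6 genes listed for plasmacytoid dendritic cells, Tcf4, Irf8, Ptprcap and Clec12a were measured, and Siglech and Spib were not. These 4 stood at 0.476 in exposed 2 and -0.082 in exposed 8, and at 0.242 in sham 7, 0.265 in sham 6 and 0.174 in sham 5. Irf8 is also among the sensing genes below, and whether the 4 read that cell type alone was not tested. Macrophage and dendritic cell markers, 9 of 12 measured, stood at 0.228 in exposed 2 and -0.006 in exposed 8, and at -0.04 in sham 7, 0.382 in sham 6 and 0.767 in sham 5. In the low arrays exposed 1, exposed 6 and sham 2, the macrophage list stood at 0.176, 0.083 and -0.271. There the endothelial list stood at -0.103, -0.203 and -0.189, and the plasmacytoid list at -0.085, -0.168 and -0.299. Summed signals of the macrophage markers were 12.5 to 30.7 in exposed arrays and 10.6 to 33.2 in sham arrays, in units of the array's 75th percentile. Those of the 4 genes listed for plasmacytoid cells were 2.97 to 4.23 in exposed arrays and 3.28 to 4.31 in sham arrays. Those of the endothelial markers were 5.94 to 10.7 in exposed arrays and 6.08 to 12 in sham arrays. Natural killer cell markers, 4 of 8 measured, stood at 0.392 in exposed 2 and -0.018 in exposed 8. They stood at 0 in sham 7, 0.496 in sham 6 and 0.543 in sham 5. In exposed 1, exposed 6 and sham 2 they stood at -0.229, -0.171 and -0.132. The remaining marker lists are not set beside these arrays here. The part of any cell type in the interferon-stimulated signal was not tested.

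**Figure D5:**
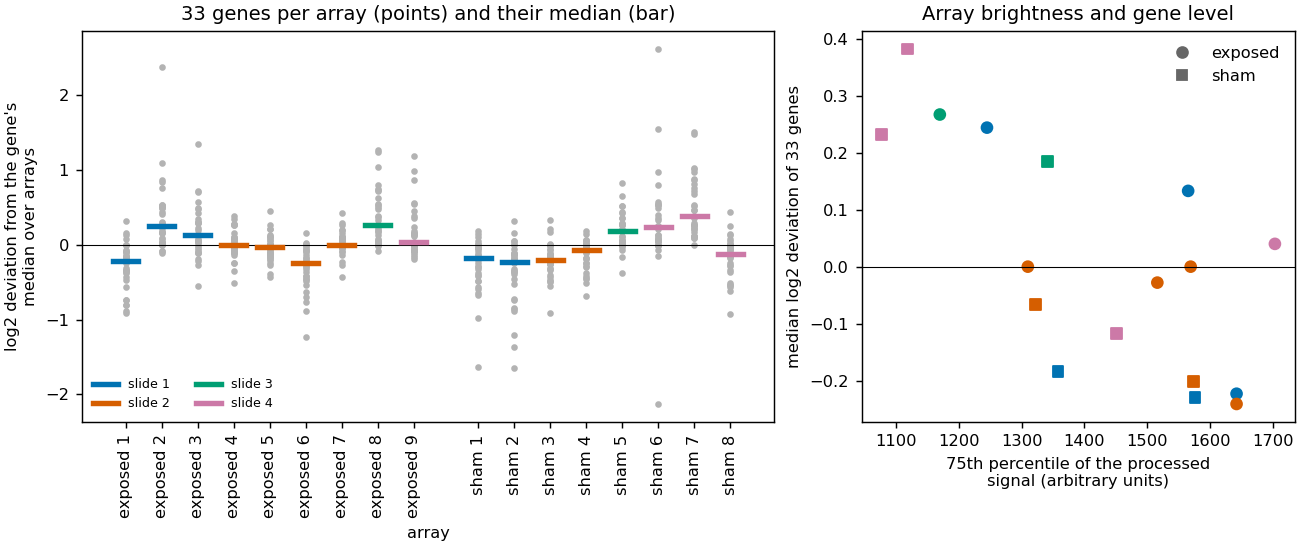
Left, log2 deviation from each gene's median for the 33 interferon-stimulated genes (points) and their median (bar, coloured by slide) per array, with exposed arrays left of sham arrays. Right, the same median against the array's 75th percentile of the processed signal, with circles for exposed and squares for sham arrays. The 4 dimmest arrays, at 1077 to 1245, all have a positive median, 0.232 to 0.382.

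For 6 genes 2 probes each were kept, so that their spread does not rest on 1 oligonucleotide. Both probes share the arrays and scaling, and pairs of different member genes already had a median r of 0.508. The permutation test asks only whether r differs from 0 and takes arrays as independent. It therefore cannot show agreement of 2 probes beyond the pattern that the members share. The Usp18 probes correlated across the 17 arrays at r = 0.985 and rho = 0.985 (permutation p = 1e-05 for each, the smallest the 100000 resamples can give, adjusted p = 6e-05 over the 6 genes). Without the 2 arrays farthest from the median the Usp18 r was 0.977. The Gbp5 probes reached r = 0.765 and rho = 0.806 (permutation p = 0.00041 and 0.0002, adjusted p = 0.00123 and 0.0006), and r = 0.746 without the 2 farthest arrays. The Parp14 probes reached r = 0.724 and rho = 0.686 (permutation p = 0.00111 and 0.00309, adjusted p = 0.00222 and 0.00618), and r = 0.554 without those arrays. The probes of Igtp, Irf1 and Eif2ak2 correlated at 0.486, 0.446 and 0.444, below that median of 0.508. Their adjusted permutation p was 0.074, 0.0755 and 0.0755, and none of these 3 passed. The brighter Igtp probe differed by -0.09 between exposed and sham arrays and the dimmer one by 0.03. In the same order, the signs also parted for Parp14 (0.12 and -0.02), Irf1 (0.01 and -0.05) and Eif2ak2 (0.01 and -0.10). They were alike for Usp18 (0.32 and 0.27) and Gbp5 (0.08 and 0.13). The dimmer Gbp5 probe was well above background on only 10 arrays, 7 exposed and 3 sham. Its median was -5.81 in exposed and -5.95 in sham arrays. Its difference and its r with the brighter probe are therefore limited by signal over background. For Igtp, Irf1 and Eif2ak2 the rho values were 0.478, 0.392 and 0.385, with adjusted permutation p of 0.0805, 0.128 and 0.128. Their r without the 2 farthest arrays was 0.33, 0.653 and 0.377.

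The spread was also set beside the promoter patterns. Among measured genes with a promoter, the 18 with an ISRE match had SDs of 0.13 to 1.07 with a median of 0.322, and the 10 without had SDs of 0.087 to 0.524 with a median of 0.207. Cmpk2 was the most variable gene without a match and Igtp the least variable with a match, so the ranges overlapped. The dimmer Igtp probe, at a median of -3.05 in exposed arrays against 6.16 for the probe used, had an SD of 0.277. For GAS, the 8 genes with a match had a median SD of 0.201 and the 20 without had 0.289. Measured genes without a promoter entered neither group. Of these, Isg15, Usp18 and Ifit2 were in the upper 10% of SD, and Dhx58 and Mx2 were not. Genes with and without a match were not matched for signal, and a link between pattern and spread was not tested.

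The interferon genes themselves left little signal. Of 10 listed ligands 5 had no named probe, and the probes of Ifnb1, Ifna5, Ifng and the keratinocyte interferon Ifnk lay above background on 0 arrays. Ifna4 was above background on 17 arrays and differed by -0.02 (-0.25 to 0.21). Of 14 measured receptor and signalling genes 4 lay above 0 and 10 below, and 0 passed adjustment. The lambda receptor chain Ifnlr1, above background on 11 arrays, had an unadjusted p under 0.05 with a difference of -0.34 (-0.68 to -0.01, adjusted p = 0.983 in limma), and Ifngr1 differed by 0.06. Of 11 nucleic acid sensing genes 5 lay above 0 and 6 below, with Tlr3, an RNA receptor of endosomes, at 0.13 and Irf3, the factor that starts interferon beta transcription, at -0.05. Tlr7 and Tlr9 were too dim to measure. The median SD was 0.144 for receptors and signalling and 0.162 for sensing, below the 0.272 of the interferon-stimulated genes.

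A further list of 54 interferon-inducible genes outside the 39 had 37 measured, of which 24 lay above 0 and 13 below, with a median difference of 0.04 and a median SD of 0.248. None passed adjustment. Slfn9 had an unadjusted p under 0.05 with a difference of 0.29 (0.04 to 0.54, adjusted p = 0.983 in limma), and Ube2l6, the conjugating enzyme for ISG15, differed by 0.20 (-0.03 to 0.43). Over the 4 lists 2 of 63 measured genes had an unadjusted p under 0.05, a share below the 4.55% of all probes.

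Genes outside the 39 were ranked by their mean correlation with the 33 across arrays. Over 11134 genes the median of this mean was -0.0013, the highest was 0.638, and 160 genes exceeded the mean correlation of the median member. The 10 highest were Ifgga2l1, Apol9a, Rtp4, RGD1309362, Phf11, Abi3, Ifi27l2b, Stard9, Slfn4 and Fbxw17, at 0.638 to 0.591, of which Rtp4 and Phf11 were on the list of further interferon-inducible genes. Rtp4 ran from -2.52 through -1.69 to -1.08 in exposed arrays, against -2.75, -2.24 and -1.05 in sham arrays, and differed by 0.35 (-0.18 to 0.87). Its highest sham array was sham 7 and its highest exposed array exposed 8. Slfn4 spanned 5.76-fold over the arrays, the widest range of the 10, and differed by 0.22 (-0.45 to 0.89).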

How the data were processed

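Cy3-labelled cRNA from each explant was hybridised to a 1-colour Agilent array. Per the file headers, the authors extracted linear intensity with Feature Extraction 10.7.3.1 (protocol GE1_107_Sep09), which subtracts background within each array. Spot flags of other kinds were deposited with the intensity. The authors' value table holds log2 values of 14853 probes with row medians of 0, and correlated at 0.981 to 0.999 with the scanner values. Its column medians ran from -0.037 to 0.041, and its scaling step is not given in the sources used here.

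Control and outlier-flagged spots were left out, spots of a probe averaged, and log2 of the processed signal was taken minus each array's 75th percentile. Probes well above background (at least 50% of spots) on at least 8 arrays were kept. Sequence names were matched to RefSeq symbols (GRCr8, names only), for 17998 of 30367 probes. The kept probe with the highest mean stood for a gene. The group difference was fitted per probe with limma 3.58.1 (R 4.3.3), and p-values were adjusted by Benjamini-Hochberg across the 20710 probes kept, with calls at 0.05. The fit was tested on simulated data.

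The members, further lists and tests were chosen with earlier results of these data known. All 39 members were named, and in each other list up to 2 genes, by unadjusted p under 0.05 and then the smallest p, with the 10 genes most correlated with the members. Alternatives were quantile and median scaling, normexp (on the median signal, since no mean signal was used here), filters, slide as a block or alone, array weights, tissue scores, the value table, probe averaging and leaving out each array.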

Additional observations from a re-analysis of the deposited data

Results flagged for a closer look

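Among 66 combinations of a gene and a group, 3 held an array that stood far from the rest, all in sham skin; chance alone marks about 1 group in 20. For Mx2, sham 3 was low at 3.76, with the nearest sham array at 4.04 and the highest at 4.25. For Bst2, sham 6 was low at -0.26, with the nearest at 1.37 and the highest at 2.51. For Ifih1, sham 7 was high at -3.06, with the nearest at -3.82 and the lowest at -4.41. Sham 7 was also the array with the highest median of the 33 genes, and sham 6 the array with the highest Ifit3, Isg15 and Gbp2 of the sham group.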

How the results depend on the processing

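Under each alternative with a test, 0 of the interferon-stimulated genes it covered (25 of 33 for the value table, 32 for the filter on all arrays and 33 otherwise), 0 of all probes and 0 genes of the further pathway lists passed adjustment between exposed and sham skin, and the smallest adjusted p of a member over all of them was 0.746. The members' median difference of 0.0323 was 0.248 within slide 1 and -0.146 within slide 4, and -0.00337 to 0.0829 when each array was left out. The members' median SD of 0.272 was 0.271 under quantile scaling and 0.237 under normexp with the 75th percentile. It was 0.208 under normexp with quantile scaling and 0.227 for the genes in the value table. The median SD of all named genes was not set beside these values. Of the 33 genes, 16 kept their sign under each alternative run for them over all 4 slides and with each array left out, and 17 turned at least once. Of the 16, 7 genes, Ifit2, Oasl2, Rsad2, Cmpk2, Ifi44, Parp9 and Parp14, also kept it within each slide. Parp14 is counted here by its brighter probe. Its dimmer probe differed by -0.02 over all arrays, by 0.21 and 0.48 within slides 1 and 3, and by -0.20 and -0.08 within slides 2 and 4. The share of all named genes that kept their sign was not counted, so these counts cannot be called unusual. Slide 3 sets 1 array against 1, and slide 4 sets 1 against 3. Some of the 7 genes vary closely together, such as Rsad2 with Cmpk2 at 0.938, so they are not independent readings. The 10 most similar genes overlapped by 5 with those found under normexp with the 75th percentile and by 5 with those from the value table. Probes past adjustment between slides numbered 0 to 16 over left-out arrays: 16 without sham 5, 12 without exposed 8, 1 without exposed 7 and 1 without sham 7. The cause of these shifts was not tested. No paired analysis was possible because the labels carry no replicate numbers that link exposed and sham arrays. Dim probes, such as that of Dtx3l and the dimmer one of Gbp5, are limited by signal over background.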

Other observations

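Spread can also be read within sham skin alone. On slide 4, where 3 sham arrays lie side by side, Isg15 was at -0.12 in sham 6, -0.19 in sham 7 and -2.20 in sham 8, and Ifit3 at -1.79, -3.39 and -4.92 in the same order. Irf7 was at 0.39, 0.41 and -0.53. Stat2 was at 1.55, 1.53 and 1.47 in these 3 arrays. Sham 6 and sham 7 were also the dimmest arrays of the series, with a 75th percentile of 1077 and 1119, against 1451 in sham 8. For Isg15 and Ifit3 the sham pairs on the other slides with a pair lay closer, though a span over 3 arrays tends to exceed that of 2. Stat2 did not follow this, at 1.23 and 1.22 on slide 1 and at 1.25 and 1.42 on slide 2. Isg15 was at -2.23 and -2.51 on slide 1 and at -2.21 and -1.91 on slide 2, and Ifit3 at -4.89 and -4.72 on slide 1 and at -4.84 and -4.84 on slide 2.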
